A study of Homo sapiens with 2 samples.

Results

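Genes of the p53 pathway were examined in PC3, a prostate cancer cell line that lacks functional p53, after knockdown of the transcriptional coactivator SUB1. The 9 genes were TP73, MDM2, GADD45A, GADD45B, SESN1, FAS, BTG2, TP53I3 and TP53INP1. They were chosen by name, as every probe for genes whose name in the array files was one of these, which gave 13 probes (40 spots on each array) out of 41000 probes. The question was which of these genes moved in cells without the factor for which the pathway is named.

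PC3 cells were transfected with small interfering RNA (siRNA) duplexes, a second time after 24 h, and harvested 72 h after the first transfection. Expression was measured on 2 Agilent arrays of the human genome, read in 2 colours, on 1 slide. Each array set cells given a SUB1 siRNA (Cy5) against cells given non-targeting (Non-T) siRNA (Cy3), so that each of the SUB1 duplexes, siRNA 1 and siRNA 2, had 1 array. Both groups and their control were the same cell line, transfected in the same way; the dyes were not swapped, and neither duplex has a second culture in the data used here. A difference between dyes and one between SUB1 and Non-T siRNA therefore cannot be told apart for any probe.

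p53 is a transcription factor that is stabilised by DNA damage and other stress and then activates genes for cell cycle arrest, repair and death. MDM2, itself a target, encodes the ubiquitin ligase that removes p53, and p73, encoded by TP73, is a relative of p53 that can bind the same DNA element. Many of the target genes also respond to other signals. The DNA element consists of a pair of half-sites, each made of purines, a fixed C, bases that are A or T, a fixed G and pyrimidines, in that order.

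SUB1 itself was lower with both duplexes. The log2 ratios (SUB1 siRNA over Non-T) of its 4 probes lay between -3.75 and -1.81 for siRNA 1 and between -3.50 and -1.57 for siRNA 2. All 5 epithelial marker genes (KRT8, KRT18, KRT19, EPCAM and CDH1) were well above background in both channels of both arrays. Of the 4 leukocyte genes only CD3E was (by 1 of its 2 probes), of 3 endothelial genes only PECAM1, and of 4 fibroblast genes COL1A1, DCN and LUM but not COL3A1. Over the 209 probes spotted 10 times and kept, the SD of the log2 ratio among spots had a median of 0.078 for siRNA 1 and of 0.074 for siRNA 2. This spread is technical and covers no difference between cultures.

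To show the element, RefSeq promoter windows (GRCh38.p14; 250 bases before to 50 after a gene start) were searched for 2 adjacent p53 half-sites of 10 bases, each with at most 1 mismatch and with its C and G intact. The element reads the same on both strands. Windows were given for 7 of the 9 genes (16 windows in all), and none was given for TP53INP1 or GADD45A. Adjacent pairs were found in windows of MDM2 and TP73, on the plus strand, at chr12:68808923-68808942 and chr1:3690596-3690615. The pair lay 101 and 94 bases before 2 neighbouring starts of MDM2 and 76 bases before an internal start of TP73, with 2 mismatches in each. A single exact half-site lay in 1 window of FAS (chr10:88991309-88991318, plus strand) and in 1 window of SESN1 (chr6:109009028-109009037, minus strand). The capitals mark the half-sites and the small letters the bases beside them.
MDM2: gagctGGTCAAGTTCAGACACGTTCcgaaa
TP73: tcaccGGGCAAGCTGAGGCCTGCCCcggac
FAS: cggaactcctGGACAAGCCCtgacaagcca
SESN1: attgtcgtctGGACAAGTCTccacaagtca
Of all 35116 windows, 0.157% held an adjacent pair and 6.63% an exact half-site. A match describes letters in a window and was not measured as binding.

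TP53INP1 was the member with the highest ratio, and it was higher with both duplexes by nearly the same amount. The gene encodes p53-inducible nuclear protein 1, a stress-induced protein that promotes cell death and autophagy. On the siRNA 1 array its probe (NM_033285; hg18 chr8:96007870-96007929, minus strand) read 279 in Cy3 (Non-T siRNA) and 609 in Cy5 (SUB1 siRNA) as mean spot intensity, over local backgrounds of 48 and 61. On the siRNA 2 array the intensities were 244 and 542, over 42 and 53. Intensities here and below are as scanned, before background correction and loess, so their quotient differs from the normalized ratio. After normalization the log2 ratios were 0.98 and 1.00, in that order. The level was 1.98-fold higher in the first case and 2.00-fold higher in the second. Both Cy5 values stood above both Cy3 values, and the ratios differed between the arrays by 0.019. Spots of probes with a similar intensity had a median SD of 0.081 and 0.071 on these arrays, so that both ratios were at least 12.1 times that spread. Among the 25673 probes that passed the filter on dim spots, the ratio ranked at place 59 from the highest with siRNA 1 and at place 135 with siRNA 2. Probe positions are those of the array files, and the exon each probe lies in was not determined here.

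By the rule of an absolute fold change of 2, TP53INP1 with siRNA 2 was the only call among the 9 member probes that passed the filter. Its value lay on the threshold in both cases. With siRNA 1, 0 of 9 member probes were at least 2-fold higher, where 0.195% of all 25673 probes were. With siRNA 2, 1 of 9 was, where 0.526% of all probes were, and 0 of 9 were with both duplexes, where 0.0506% were. At least 2-fold lower were 0 of 9 with each duplex, where 0.557% of all probes were with siRNA 1 and 0.923% with siRNA 2. When the mean over both duplexes was tested against 0 with limma, TP53INP1 had a mean log2 ratio of 0.99 (standard error 0.094), an unadjusted p of 2e-04 and an adjusted p of 0.103 over all probes kept. No member passed an adjusted p of 0.05 in limma, which 0.0117% of all probes did. The fit was also run on simulated data of 2 arrays, in which 200 of 25673 probes changed and the rest were noise alone. Recovery on the real arrays may differ, since the share of changed probes there is not known. In the simulation it found 0% of log2 changes of 1, about the size of TP53INP1. Of log2 changes of 2 it found 97.5%, with 14 false calls. A miss therefore says nothing about whether a member changed by a log2 ratio of 1 or less. At an unadjusted p under 0.05 there were 2 member probes (TP53INP1 and SESN1) and 5455 of all probes (21.2%). Whether a spread between control cultures enters this test is not known, since 1 Non-T extract may have served both arrays. Its p-values rest on the spread between 2 arrays with different duplexes, which limma draws towards the spread of all kept probes. Without the filter on dim spots the adjusted p of TP53INP1 was 0.0361, while 452 of 40999 probes passed.

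**Figure D1:**
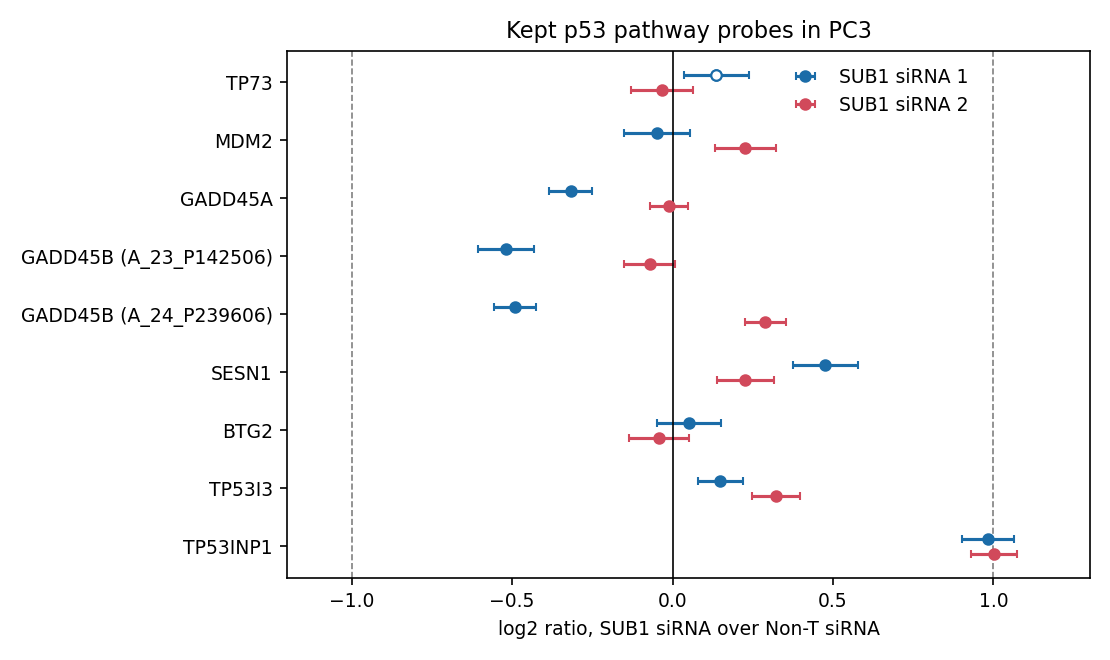
Log2 ratio, SUB1 siRNA over Non-T (horizontal axis) for the 9 member probes that passed the filter on dim spots, with blue points for siRNA 1 and red points for siRNA 2. Bars are the median SD among spots of probes with a similar intensity on that array, and dashed lines mark 2-fold. The open point (TP73 with siRNA 1) is uncertain, since its Cy3 spot was not well above background. TP53INP1 lies at 0.98 and 1.00, and the other ratios lie between -0.52 and 0.48.

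The upstream members gave little signal. In the pairs of intensities below, Cy3 (Non-T siRNA) stands first and Cy5 (SUB1 siRNA) second. TP73 has 2 probes. One (A_23_P74081, spanning hg18 chr1:3637488-3637944) was not well above background in any of its 10 spots in either channel, with mean intensities of 89.6 against 69.5 (siRNA 1 array) and 83.7 against 68.1 (siRNA 2 array). The other (A_24_P413470, chr1:3639401-3639460) had 112 in Cy3 against 108 in Cy5 (siRNA 1 array) and 106 against 95.7 (siRNA 2 array). Its Cy3 spot on the siRNA 1 array was not well above background, so that the log2 ratio of 0.14 there is uncertain. With siRNA 2 the log2 ratio was -0.033. Neither ratio was past 2 SDs of the spread among spots of similar intensity. MDM2 was dim as well. The probe A_23_P309545 (chr12:67489279-67489338) had 120 in Cy3 against 108 in Cy5 (siRNA 1 array) and 104 against 110 (siRNA 2 array), with log2 ratios of -0.049 and 0.23. Only the second was past 2 SDs among spots (2.38 times the SD). The other MDM2 probe (A_23_P502750, chr12:67520089-67520148) had 0 of 10 spots well above background in each channel of both arrays. In limma the adjusted p was 0.803 for the TP73 probe and 0.686 for the MDM2 probe that were kept. These dim ratios depended on the processing. From the software's processed signals they were 0.61 (siRNA 1) and 0.016 (siRNA 2) for TP73, and -0.021 and 0.40 for MDM2.

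GADD45A and GADD45B encode related stress sensors that bind and activate the kinase MAP3K4. GADD45A (A_23_P23221, NM_001924; hg18 chr1:67925959-67926018) had intensities of 2696 in Cy3 against 2675 in Cy5 (siRNA 1 array) and 2140 against 2641 (siRNA 2 array). Its log2 ratio was -0.32 with siRNA 1, 4.73 times the spread among spots, and -0.011 with siRNA 2, which was within that spread. With median centring instead of loess, the value was -0.065 with siRNA 1, within the spread among spots (0.067), and 0.26 with siRNA 2. The size of the decrease with siRNA 1 and the direction with siRNA 2 thus depend on the normalization.

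GADD45B went opposite ways with the duplexes at its brighter probe. That probe (A_24_P239606, chr19:2429178-2429237) had 1440 in Cy3 against 1237 in Cy5 (siRNA 1 array) and 1241 against 1856 (siRNA 2 array). Its log2 ratio was -0.49 with siRNA 1 and 0.29 with siRNA 2, 7.43 and 4.60 times the spread among spots. The dimmer probe (A_23_P142506, chr19:2428070-2428129) had 283 against 211 (siRNA 1 array) and 241 against 252 (siRNA 2 array), with log2 ratios of -0.52 and -0.071. Both probes were thus lower with siRNA 1, and both had a higher ratio with siRNA 2 than with siRNA 1, by 0.78 and 0.45. The difference lay in Cy5. After normalization across arrays, the Cy3 levels (log2) of these probes were apart by 0.016 and -0.036 (siRNA 2 array less siRNA 1 array), and the Cy5 levels by 0.80 and 0.41. Over all kept probes the SD of that difference was 0.12 in Cy3 and 0.30 in Cy5. With 1 array per duplex, the difference between siRNAs was not tested, and for the mean over both limma gave adjusted p-values of 0.808 and 0.303. Whether 1 Non-T extract served both hybridisations is not given in the sources used here.

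**Figure D2:**
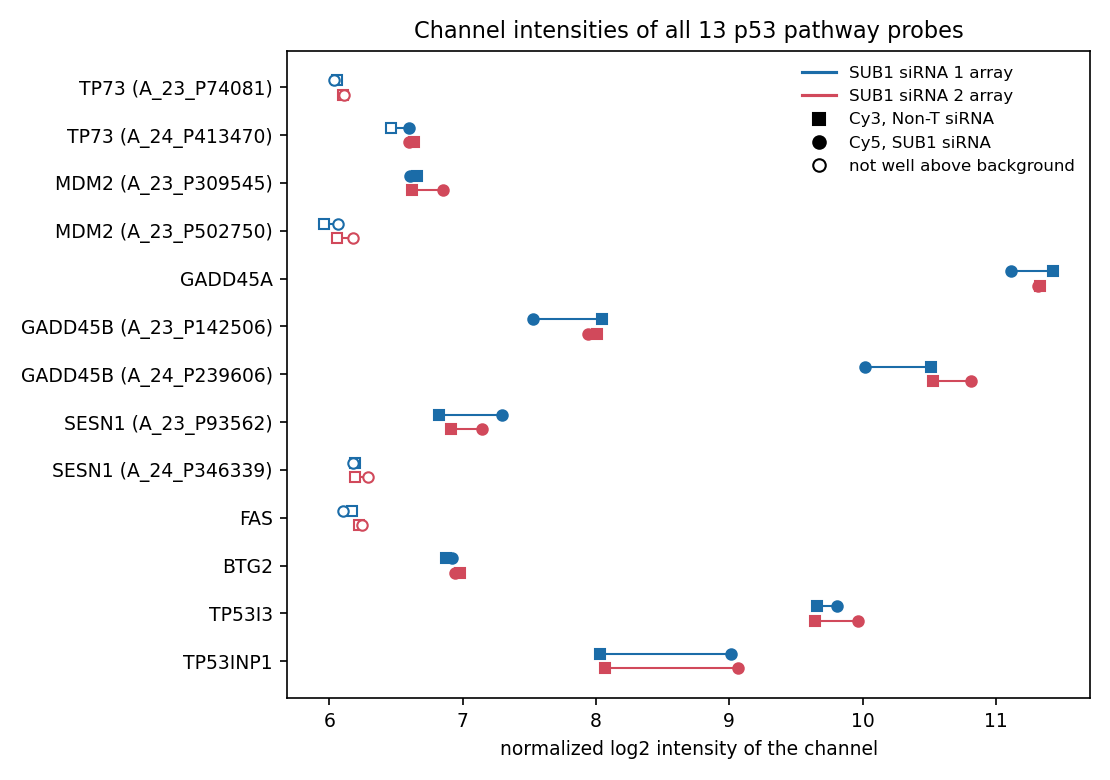
Normalized log2 intensity (horizontal axis) of the Cy3 channel (squares, Non-T siRNA) and the Cy5 channel (circles, SUB1 siRNA) for all 13 member probes, with the siRNA 1 array in blue and the siRNA 2 array in red. Open symbols were not well above background; levels are to be compared within a probe only. The Cy3 values of TP53INP1 (8.03 and 8.07) and its Cy5 values (9.01 and 9.07) are alike on both arrays, whereas Cy5 of GADD45B (A_24_P239606) is 10.0 on one and 10.8 on the other.

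Among the effectors, SESN1 and TP53I3 had higher ratios with both duplexes, short of 2-fold. SESN1 encodes sestrin 1, a stress-induced inhibitor of mTORC1 signalling. Its probe A_23_P93562 (chr6:109415170-109415229, minus strand) had 135 in Cy3 against 175 in Cy5 (siRNA 1 array) and 130 against 152 (siRNA 2 array), with log2 ratios of 0.48 and 0.23. These were 4.75 and 2.56 times the spread among spots, and both Cy5 values were above both Cy3 values. The mean was 0.35 (standard error 0.11), with an adjusted p of 0.186 in limma. A second SESN1 probe (A_24_P346339, chr6:109416498-109416557) was not well above background in any channel. TP53I3 encodes an oxidoreductase linked to the generation of reactive oxygen species. Its probe (A_23_P5392, spanning chr2:24154119-24155860, minus strand) had 818 against 1072 (siRNA 1 array) and 687 against 1018 (siRNA 2 array). Its log2 ratios were 0.15 and 0.32, which were 2.12 and 4.35 times the spread among spots, and the adjusted p was 0.273 in limma. Among member probes, SESN1 had the widest range of ratios over the settings tried. It was 0.98 and 0.61 from the software's processed signals, and 0.33 and 0.20 in the authors' table.

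The ratios of BTG2 lay within the spread among spots, and FAS was not well above background. BTG2 encodes an antiproliferative protein that recruits the CCR4-NOT deadenylase. Its probe (A_23_P62901, chr1:201545077-201545136) had 140 in Cy3 against 136 in Cy5 (siRNA 1 array) and 136 against 124 (siRNA 2 array). The log2 ratios were 0.051 and -0.042, each within 1 SD among spots of similar intensity. FAS, the death receptor on the cell surface, was measured by 1 probe spotted 10 times (A_23_P63896, chr10:90764525-90764584). In Cy3, 0 of its spots were well above background on either array, and in Cy5 1 spot was with siRNA 1 and 2 spots were with siRNA 2. Its mean intensities were 96.9 against 74.1 (siRNA 1 array) and 88.2 against 76.9 (siRNA 2 array). FAS was the only member without a probe past the filter, and no fold is given for it. No member spot was saturated, and no other probe on the arrays matched a member by accession or synonym.

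**Figure D3:**
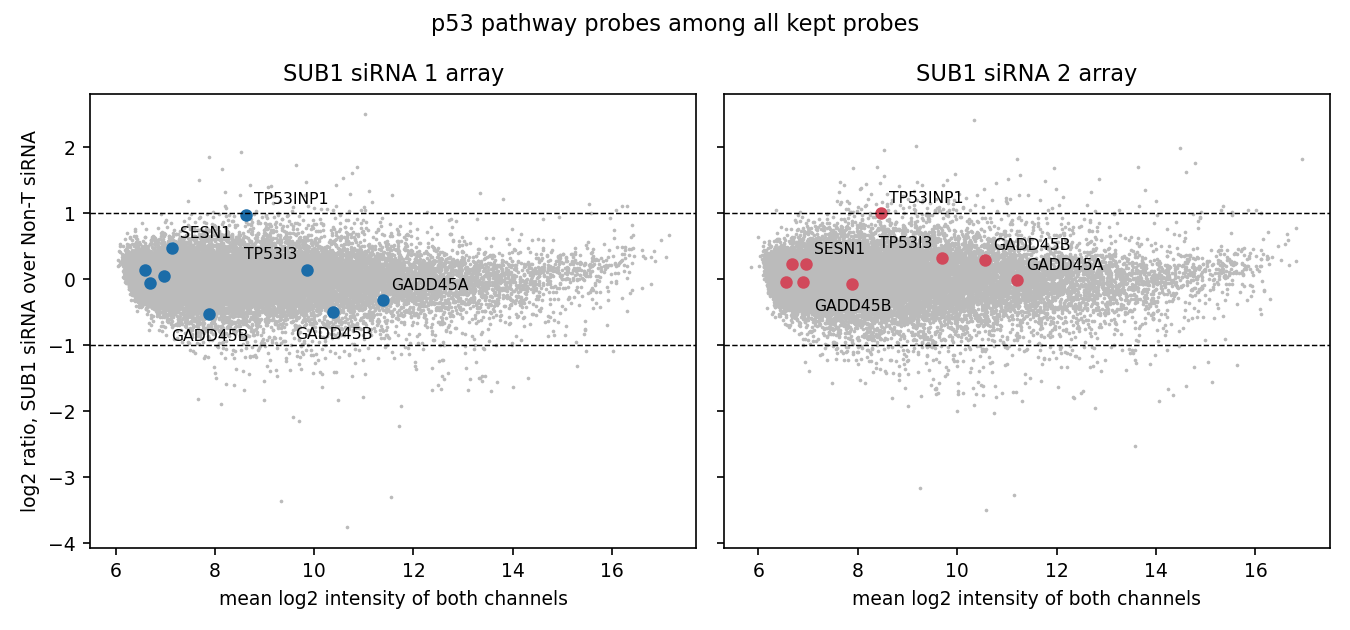
Log2 ratio, SUB1 siRNA over Non-T (vertical axis) against the mean log2 intensity of both channels (horizontal axis) for the 25673 kept probes (grey) and the 9 kept member probes (coloured), with 1 panel per array and dashed lines at 2-fold. TP53INP1 lies at the upper edge of the cloud in both panels, and the GADD45B probes lie in its lower part with siRNA 1 only.

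TP63, which like TP73 encodes a relative of p53, had 1 of 2 probes past the filter, with intensities between 90.5 and 112. Its Cy3 spot was not well above background with siRNA 1, and with siRNA 2 its log2 ratio was -0.078. MDM4, which encodes a p53 inhibitor related to MDM2, had -0.19 with siRNA 1 and 0.090 with siRNA 2 at the brightest of its 3 probes.

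The wider pathway was described with 3 lists of 67 genes that hold none of the members, in which the brightest kept probe stood for each gene; 61 genes had one. With siRNA 1, 2 of the 61 genes were at least 2-fold changed, where 0.817% of all 19219 genes were. Both were lower (CCNG1 and BTG3). With siRNA 2, 2 other genes were, where 1.68% of all genes were, and both were higher (GDF15 and TOB1). No listed gene was changed 2-fold with both duplexes. The median log2 ratio of the 61 genes was 0.0076 with siRNA 1 and 0.075 with siRNA 2, beside 0.024 over all genes with each duplex. Of all genes, 54.1% were higher with siRNA 1 and 53.6% with siRNA 2, against which the shares of each list are to be read.

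Of 25 target genes of p53, 12 were higher with siRNA 1 (48.0%) and 13 with siRNA 2 (52.0%), and the median was -0.056 with siRNA 1 and 0.065 with siRNA 2. GDF15, a secreted stress cytokine, had the highest mean. It had intensities of 18141 in Cy3 against 34598 in Cy5 (siRNA 1 array) and 12984 against 62116 (siRNA 2 array), with log2 ratios of 0.47 and 1.76, and no probe spotted 10 times was bright enough to give a spread for it. CDKN1A, which encodes a cyclin-dependent kinase inhibitor and is a classical p53 target, had 387 against 566 (siRNA 1 array) and 340 against 647 (siRNA 2 array). Its log2 ratios were 0.37 and 0.75 at this brighter probe. The second kept probe had -0.19 with siRNA 1 and 0.055 with siRNA 2, but was not well above background in Cy3 on either array. CCNG1, which encodes cyclin G1, was lower, with 616 against 325 (siRNA 1 array) and 547 against 468 (siRNA 2 array), and log2 ratios of -1.16 and -0.44. SFN, which encodes 14-3-3 sigma, had -0.41 and -0.66. GDF15 and, at its brighter probe only, CDKN1A were thus higher with both duplexes, and CCNG1 and SFN lower. In limma, the adjusted p of these 4 genes lay between 0.124 (SFN) and 0.166 (GDF15).

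Among 23 genes of the p53 family and its regulators, 14 were higher with each duplex (60.9%) and none was 2-fold changed on either array. CHEK1 and CHEK2, the checkpoint kinases that act on p53 after DNA damage, had the lowest means, with log2 ratios of -0.39 and -0.80 for CHEK1 and of -0.31 and -0.60 for CHEK2. COP1, a ubiquitin ligase for p53, had 0.10 with siRNA 1 and 0.51 with siRNA 2 at its brighter probe. Its other kept probe had 0.080 and 0.13, so that the larger value was not seen at both. HIPK2, a kinase that phosphorylates p53, had 2319 in Cy3 against 5044 in Cy5 with siRNA 1 but 2223 against 2262 with siRNA 2. Its log2 ratio was 0.81 with siRNA 1 and -0.28 with siRNA 2, so that the duplexes lay on opposite sides of 0.

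Of 13 paralogs and partners of the members, 6 were higher with siRNA 1 (46.2%) and 9 with siRNA 2 (69.2%). TOB1 and BTG3 belong to the same antiproliferative family as BTG2. TOB1 had log2 ratios of 0.48 and 1.03 at its brighter probe and of 0.17 and 0.73 at the other, whereas BTG3 had -1.16 with siRNA 1 and -0.017 with siRNA 2. CASP8, which is activated through FAS, had 0.31 and 0.29. ITCH, a ubiquitin ligase for p73, had -0.18 and -0.39, and its second probe had 0.23 and -0.027. GADD45G, SESN3 and FASLG had no probe past the filter. Over all 61 genes the lowest adjusted p in limma was 0.124 (SFN).

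**Figure D4:**
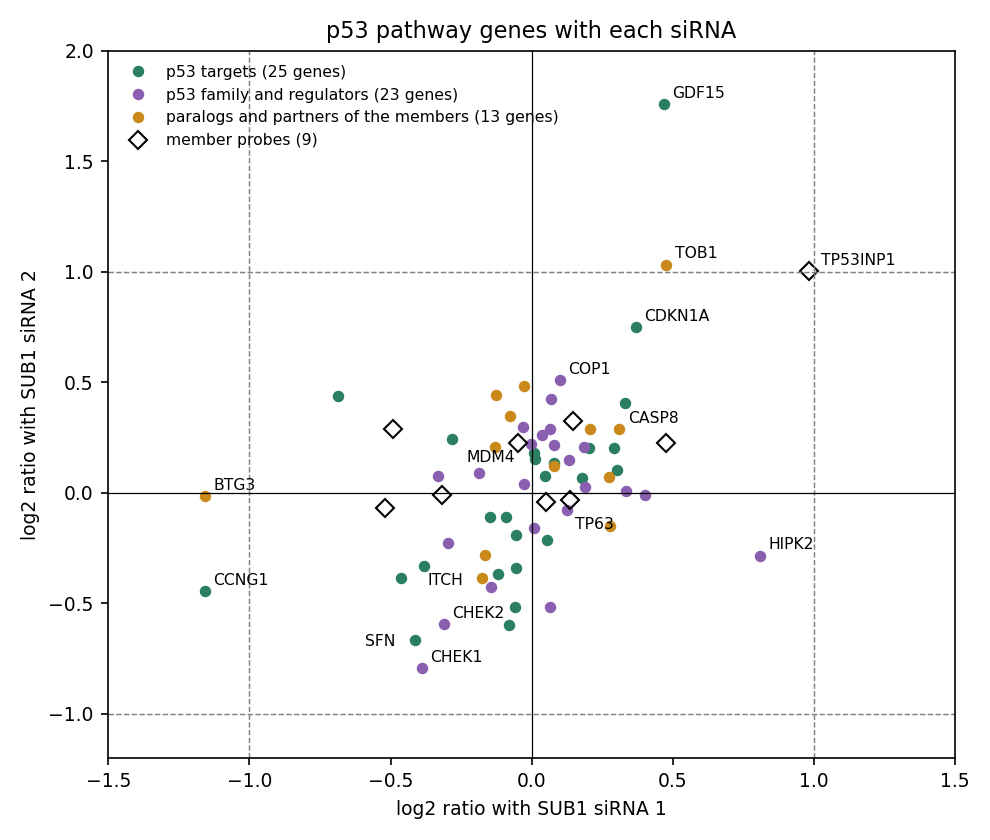
Log2 ratio with SUB1 siRNA 2 (vertical axis) against that with SUB1 siRNA 1 (horizontal axis) for 61 listed pathway genes (filled circles, coloured by list) and the 9 kept member probes (open diamonds), with dashed lines at 2-fold. Both axes share Non-T siRNA as the control, so the picture gives each gene's pair of values and no relation between them. With siRNA 1, TP63 and TP73 had a Cy3 spot not well above background. TP53INP1 stands near 1 on both axes, GDF15 is at 0.47 and 1.76, and HIPK2 is at 0.81 and -0.28.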

How the data were processed

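The authors read 2 arrays in 2 colours. Per the file headers, spots were quantified by Agilent Feature Extraction 9.5.1.1 and probe coordinates are on hg18. The deposited values are intensity per spot and channel. A table of log2 ratios deposited by the authors, made by loess on each array with agilp according to the paper, served as an alternative.

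Here, the local background (median) was removed from mean spot intensities by normexp (offset 50), and the values were normalized by loess (span 0.3) in limma 3.58.1 (R 4.3.3). Outlier-flagged spots were dropped (112 and 100 gene spots on the arrays; 6 of member probes) and spots of a probe averaged. Probes were kept where at least 0.5 of the spots were well above background in 1 channel or more on both arrays. Levels between arrays were compared after Aquantile normalization. A changed probe had an absolute log2 ratio of at least 1 on an array. limma's lmFit and eBayes, with Benjamini-Hochberg adjustment, tested the mean of both siRNAs against 0 over all kept probes. The fit was tested on simulated data.

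Members and lists were chosen with earlier results of these data known. Genes outside the members were named by rule: TP63, MDM4 and CDKN1A, every listed gene changed at least 2-fold on an array, and the 2 highest and 2 lowest mean ratios of each list. Some items that the rule or the marker lists cover are not reported here. Alternatives covered background correction, spot signal, normalization, the authors' table, the filter, outlier spots, the variance prior and the probes of a gene. The slide could not be a block because both arrays lay on 1 slide. Precision is limited by having 1 array per duplex.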

Additional observations from a re-analysis of the deposited data

Results flagged for a closer look

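Among the member probes and the 61 listed genes, 4 genes had log2 ratios of opposite sign with the SUB1 duplexes, each by more than 2 SDs among spots of similar intensity. Disagreement in sign was common on these arrays. Of all 19219 genes, 7313 were higher with both duplexes and 5832 lower with both, and of the 61 listed genes 25 and 18 were. The share of all genes that meet the rule of 2 SDs was not counted, so the 4 are not read as particular to the pathway. For the brighter GADD45B probe (A_24_P239606) the ratio was higher with siRNA 2, by 0.78. For HIPK2 (A_23_P169756), measured by 1 probe, the value with siRNA 2 less the value with siRNA 1 was -1.09. PMAIP1, which encodes the BH3-only protein NOXA, had -0.69 and 0.44, a difference of 1.12, and PPM1D, which encodes a phosphatase that acts on p53, had -0.28 and 0.24, a difference of 0.53. PMAIP1 and PPM1D were named after their values were seen. With 1 array for each duplex, none of these differences was tested, and the difference between duplexes and that between cultures cannot be told apart.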

How the results depend on the processing

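Of 45 recomputed counts, 37 kept the value or stayed within 1.5 times of it, and of 90 ratios of member probes under the 5 settings that altered any of them, 24 moved by more than 1 SD among spots. The settings for the filter and for outlier spots altered no ratio of a kept member probe. TP53INP1 lay at the 2-fold threshold in all settings, between 0.95 and 1.15 with siRNA 1 and between 0.99 and 1.17 with siRNA 2. The count of member probes at least 2-fold changed therefore went from 0 to 1 with siRNA 1 under median centring, the software's processed signals and the authors' log2 ratios, and from 1 to 0 with siRNA 2 without background correction. The count of listed genes went from 2 to 1 with siRNA 1 under median centring, and from 2 to 1 with siRNA 2 with median spot signals or when all kept probes of a gene were averaged. In limma, 0 member probes passed an adjusted p of 0.05 except without the filter on dim probes, where 1 did (TP53INP1). Its adjusted p lay between 0.0361 and 0.168 over all settings, and 2 or 3 member probes had an unadjusted p under 0.05. The number of probes called in all was 3, and 452 without the filter, 1 with 1 probe per gene, and 0 with the processed signals or the authors' table. With siRNA 1, median centring gave 169 probes higher and 71 lower, the processed signals 1020 and 386, and the log2 ratios of the authors 71 and 123, in place of 50 and 143. With siRNA 2 these were 310 and 115, 1307 and 642, and 175 and 188, in place of 135 and 237. Median centring also gave all kept probes a median of 0.11 for siRNA 1 (0.014 under loess) and 0.10 for siRNA 2 (0.015 under loess). The cause was not tested. Beside the GADD45A value given above, the sign of MDM2 with siRNA 1, of TP73 with siRNA 2, of the dimmer GADD45B probe with siRNA 2 and of BTG2 with both changed under at least 1 setting. Each ratio pairs SUB1 siRNA with Non-T siRNA on the same array. No pairing by replicate was possible beyond that, because the labels number no replicates and each siRNA has 1 array.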
